A study of Mus musculus with 6 samples.

Results

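The genes described here are the AP-1 transcription factors and a few other immediate early genes of mouse keratinocytes. They comprise the FOS family (Fos, Fosb, Fosl1 and Fosl2), the JUN family (Jun, Junb and Jund) and Egr1, Atf3 and Ier3. A member was any transcript cluster, the set of exons that the array assigns to a locus, whose platform gene symbol was one of these 10 names. The rule found 9 of the 10 genes, each with 1 cluster, among 14860 gene symbols and 23332 clusters in all. No cluster in the tables used here carried the symbol Fosb, so that gene is not analysed here.

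Total RNA came from 3 lines of immortalized keratinocytes, the epithelial cells of the epidermis, with 2 arrays per line. The rescue line consists of null cells stably transfected with human α3, so it carries the same α3-null background. The null line (MK546) came from α3-null newborn mice and lacks integrin α3β1, a laminin receptor. The wild-type line (MK116) came from wild-type newborn mice. All 3 lines carry the SV40 large T antigen, which inactivates the p53 and Rb tumour suppressors, and each genotype is represented by 1 line, so genotype and line cannot be told apart. They were kept at 33 °C on denatured collagen in a medium with 0.05 mM calcium, 4% serum, 10 ng/ml EGF, 10 units/ml interferon-γ, insulin and hydrocortisone. EGF and serum, which induce immediate early genes, were thus present in every group, and no label gives the time between feeding and harvest.

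AP-1 is a dimer of basic leucine zipper (bZIP) proteins. JUN proteins pair with themselves, with FOS proteins or with ATF proteins, whereas FOS proteins need a JUN partner to bind DNA. The classical binding sites are the TRE and the closely related CRE. Immediate early genes are transcribed within minutes of a growth factor, adhesion or stress signal, without new protein synthesis. ERK acts on Fos and Egr1 through the serum response factor SRF and its ELK cofactors, and JNK and p38 act on Jun and Atf3 through JUN and ATF2. In the epidermis, AP-1 proteins are known for control of involucrin and other differentiation genes, of matrix metalloproteinases and of the wound response.

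Promoter windows are shown for 4 of the members that changed. The autoregulation of Jun and Atf3 through CRE-type sites is textbook biology, and the same motifs were marked in Fos and Junb. Each runs from 250 bases before to 50 bases after the annotated start, 5′ to 3′ on the gene's strand, in RefSeq assembly GRCm38.p6. Capitals mark TGACG, the core of the CRE, or TGACATCA, a CRE-like octamer, on either strand. The Fos window is chr12:85473640-85473939 (+), the Jun window chr4:95052173-95052472 (-), the Junb window chr8:84978699-84978998 (-) and the Atf3 window chr1:191183284-191183583 (-).
Fos: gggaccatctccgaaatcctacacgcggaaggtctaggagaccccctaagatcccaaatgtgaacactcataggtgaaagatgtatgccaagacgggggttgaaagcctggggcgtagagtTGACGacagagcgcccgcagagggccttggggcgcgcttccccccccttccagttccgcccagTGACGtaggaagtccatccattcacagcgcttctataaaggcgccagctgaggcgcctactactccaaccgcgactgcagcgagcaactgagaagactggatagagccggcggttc
Jun: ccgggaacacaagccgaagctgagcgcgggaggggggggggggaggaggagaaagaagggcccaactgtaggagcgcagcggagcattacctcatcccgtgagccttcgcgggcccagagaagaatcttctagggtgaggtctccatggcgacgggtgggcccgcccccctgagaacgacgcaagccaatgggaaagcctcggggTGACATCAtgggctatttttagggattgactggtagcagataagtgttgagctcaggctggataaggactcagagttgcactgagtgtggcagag
Junb: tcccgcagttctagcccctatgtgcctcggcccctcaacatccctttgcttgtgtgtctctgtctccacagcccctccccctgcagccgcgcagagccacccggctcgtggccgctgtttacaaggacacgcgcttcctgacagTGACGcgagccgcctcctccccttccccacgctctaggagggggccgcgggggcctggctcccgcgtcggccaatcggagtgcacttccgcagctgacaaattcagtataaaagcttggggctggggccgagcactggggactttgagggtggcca
Atf3: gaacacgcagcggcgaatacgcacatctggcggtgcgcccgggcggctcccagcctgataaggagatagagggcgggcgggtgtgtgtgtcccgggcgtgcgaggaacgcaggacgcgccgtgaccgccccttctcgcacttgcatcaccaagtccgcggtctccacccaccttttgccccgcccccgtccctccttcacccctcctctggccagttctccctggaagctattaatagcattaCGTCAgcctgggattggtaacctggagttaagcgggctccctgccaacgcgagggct

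The Fos window held TGACG at positions -129 to -125 and -66 to -62 from the start, and the Junb window at -106 to -102. The Atf3 window held it on the other strand at -7 to -3. In Jun, TGACATCA lay at -45 to -38. Of the 8 members with a window in the table (all but Egr1 and Fosl1), 4 held TGACG, against 20.8% of 32851 windows of the same length. TGACATCA was found in 1 of the 8 and in 3.62% of all windows. The TRE (TGANTCA), the full CRE (TGACGTCA, which contains TGACG) and the CArG box, the site of SRF, were each found in 0 of the 8, against 7.81%, 1.79% and 1.63% of all windows. Each search covered both strands, and a match or its absence describes only the letters in these windows. The map of motif matches also shows TATAAA, which was found in the windows of Fos and Junb (13.6% of all windows). It lay at -33 to -28 in Fos and at 1 to 6 in Junb, so in Junb not before the annotated start.

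**Figure D1:**
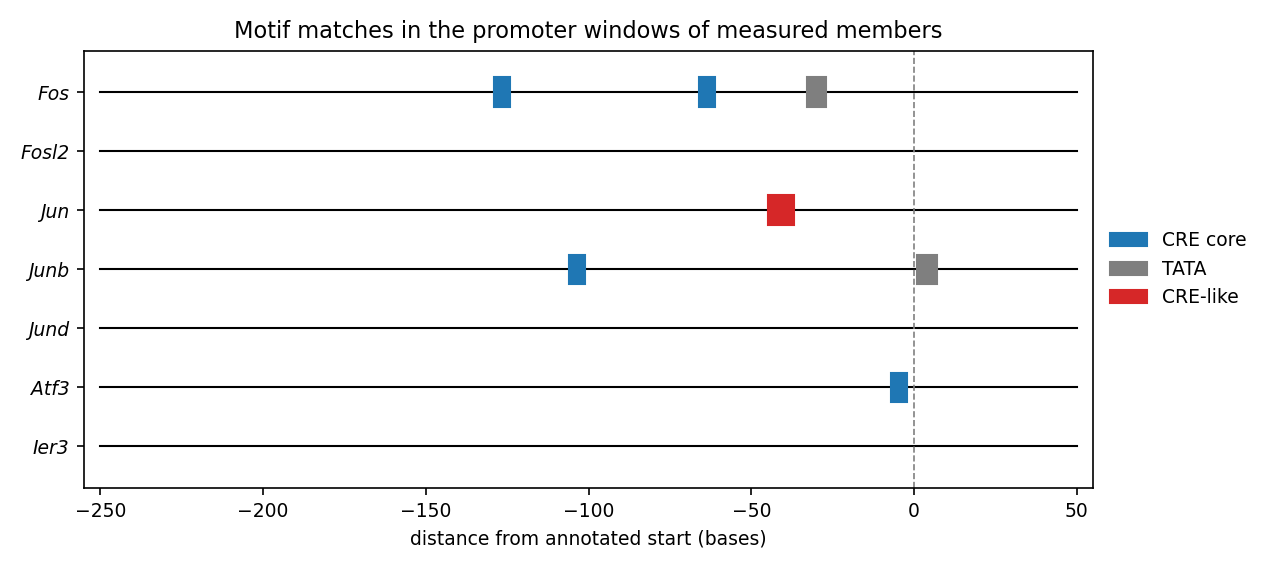
Positions of motif matches in the promoter windows of the 7 measured members with a window. The horizontal axis is the distance in bases from the annotated start (dashed line), each row is a gene, and boxes are matches on either strand. Fos has CRE core matches at -129 and -66, Jun a CRE-like octamer at -45, and Fosl2, Jund and Ier3 have no box.

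Values are PLIER intensities, the authors' summary of the probes of a cluster on a linear scale, and differences are on the log2(intensity + 16) scale. A gene is said to rise or fall where limma gave an adjusted p under 0.05 over all 23332 clusters. Median intensity per array was 96.6 to 108, and Pearson's r between arrays across clusters was 0.990 to 0.991 within lines. The targeted gene Itga3 averaged 1219 ± 2.04 in the rescue line, 952 ± 63.2 in the null line and 6325 ± 54.1 in the wild-type line (SD, n = 2 each). The null line had 0.150 of the wild-type intensity (log2 difference -2.71, limma adjusted p = 1.43e-05). The construct of the rescue line is human, and how far mouse probes read it, or lie outside the deleted part of the gene, was not tested. The summed intensity of 8 keratinocyte markers was 37416 to 40411 on rescue arrays, 43063 to 43693 on null arrays and 41299 to 42703 on wild-type arrays. Markers of fibroblasts, immune cells, endothelium and melanocytes (9, 8, 6 and 6 genes measured) summed to at most 862, 405, 244 and 366 on any array. The immune and melanocyte sums include Adgre1 and Pmel 2 times each, because both were listed under 2 names, so they are upper bounds. Limma called 0 of these markers in every comparison. At an unadjusted p under 0.05, 2 fibroblast markers were lower and 1 melanocyte marker higher in the rescue than in the wild-type line, and 0 markers of these 4 cell types passed in the other comparisons.

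The members did not move together. Fos was lower in the null line than in both the rescue and the wild-type line, with 0.522 of the wild-type intensity. Jun was lower in both the rescue and the null line than in wild type. Atf3 was highest in the rescue line, and Junb was lower in the rescue line than in the null line. Fosl2 was modestly lower in the null line than in wild type, and Fosl1, Jund, Egr1 and Ier3 were called in no comparison. The plot of intensities by array shows every value.

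**Figure D2:**
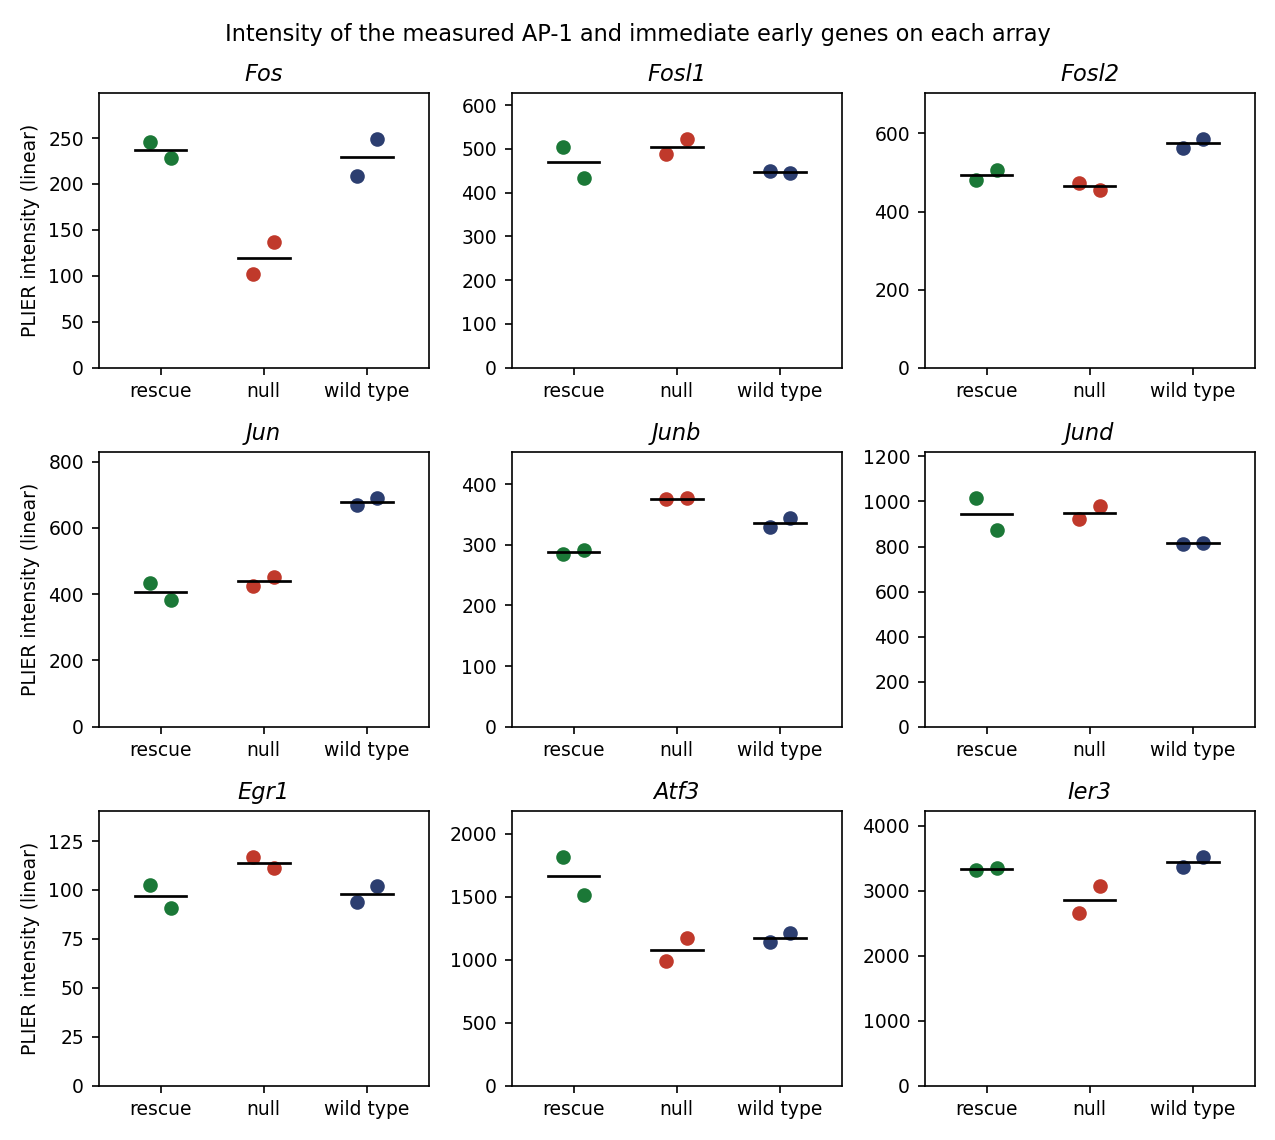
PLIER intensity (vertical axes, linear, from 0) of the 9 measured members on each array of the rescue, null and wild-type lines. Points are arrays and bars are means of 2. Fos is low on both null arrays, Jun is high on both wild-type arrays, and Atf3 is high on both rescue arrays.

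In the comparison of the rescue with the null line, 2 of the 9 members rose (Fos and Atf3) and 1 fell (Junb). That is 33.3% of the members, beside 15.4% of all clusters called in either direction. The arrays of the lines did not overlap for 6 of the 9, beside 55.6% of all clusters. When null cells were set against wild type, 3 members fell (Fos, Jun and Fosl2) and 0 rose, also 33.3%, beside 15.3% of all clusters. At an unadjusted p under 0.05, 4 were lower and 1 was higher (Jund). Arrays did not overlap for 8 of the 9 members, beside 56.3% of all clusters. Between the rescue and the wild-type line, 1 rose (Atf3) and 1 fell (Jun), 22.2% of the members beside 15.4% of all clusters, and arrays did not overlap for 6 of 9, beside 57.6%. With 9 genes these shares rest on 2 or 3 calls each. All members but Egr1 lay above the median cluster mean. With only such clusters tested, 3 of 8 members were called in rescue minus null, beside 4294 of 11666 clusters. In null minus wild type it was 4 of 8 members, beside 4199 of 11666 clusters. In rescue minus wild type the members called were again Jun and Atf3, beside 4019 of 11666 clusters. No member differed by 2-fold or more in the limma fit, beside 2.33%, 2.72% and 3.17% of all clusters called with such a difference in the same order of comparisons. The median log2 difference of the 9 was -0.01, -0.12 and -0.01, against 0.02, -0.01 and 0.03 over all clusters.

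Each pair of comparisons shares the arrays of a line, so their values are given side by side and not as independent evidence. The labels leave it unsaid if both arrays per line stem from separate cultures, and the p-values measure only the spread between these arrays. Centring each array on its median moved all rescue minus null differences by -0.12 on the log2 scale, and with it Fos (0.79, limma adjusted p = 0.0211), Junb (-0.49, 0.0130) and Atf3 (0.50, 0.0390) were still called. It also moved the share of higher calls in that comparison to 40.9% from the 63.4% of the deposited scaling, with 49.9% after quantile normalization. For the null against the wild-type line, the share was 68.1% after centring, beside 55.4% as deposited. For the rescue against the wild-type line it was 53.5% after quantile normalization, beside 67.2% as deposited.

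Fos encodes c-FOS, the founding member of its family and a classical target of ERK signalling. Its intensity was 246 and 228 on the rescue arrays, 102 and 137 on the null ones, and 209 and 249 on those of wild type. Both null arrays lay below every other array, and the rescue and wild-type arrays overlapped. Fos was 1.98 times as bright in the rescue as in the null line (log2 difference 0.91 ± 0.15 SE, limma adjusted p = 0.0139). In the null line it had 0.522 of the wild-type intensity (log2 difference -0.86 ± 0.15, limma adjusted p = 0.0153). Between the rescue and the wild-type line the difference was 0.05, with a 95% interval of -0.32 to 0.42. The rise in the rescue line was no longer called without null replicate 1 (limma adjusted p = 0.0570) or rescue replicate 1 (0.0792), and the fall in the null line without null replicate 1 (0.0635), wild type replicate 1 (0.0551) or wild type replicate 2 (0.0936). Its direction held in all 17 alternatives of each of these 2 comparisons. The filters, the variance models, the replicate block and the arrays of the third line leave the estimate unchanged. Only the other alternatives could have turned the direction.

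Fosl2 encodes FRA-2, a FOS protein without the strong transactivation domain of c-FOS. It gave 480 and 507 on the rescue arrays, 474 and 455 on the null ones, and 564 and 585 on those of wild type. The wild-type arrays were the highest, and the null arrays lay just below the rescue arrays. The null line had 0.809 of the wild-type intensity (log2 difference -0.30 ± 0.07, limma adjusted p = 0.0403). This call was lost with median centring (limma adjusted p = 0.142), without the variance trend (0.0920) and without any of the 4 null and wild-type arrays (0.119 to 0.198). The rescue line did not differ from the null line by the test (0.08, 95% interval -0.09 to 0.26), and its difference from wild type was -0.21 (limma adjusted p = 0.103).

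Fosl1 encodes FRA-1, the FOS protein associated with keratinocyte migration and invasion. Its values were 504 and 434 on the rescue arrays, 488 and 522 on the null ones, and 450 and 445 on those of wild type. The rescue arrays spanned nearly the whole range. The log2 difference was -0.11 (95% interval -0.33 to 0.12) between rescue and null, 0.17 (-0.05 to 0.39) between null and wild type, and 0.06 (-0.16 to 0.29) between rescue and wild type. None of these was called by limma.

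Jun encodes c-JUN, the partner that FOS proteins need and the main nuclear target of JNK. It gave 433 and 382 on the rescue arrays, 424 and 453 on the null ones, and 669 and 690 on those of wild type. Both wild-type arrays stood above the other 4, and the rescue and null arrays overlapped. The null line had 0.645 of the wild-type intensity (log2 difference -0.61 ± 0.09, limma adjusted p = 0.00727), and the rescue line had 0.600 of it (-0.72 ± 0.09, limma adjusted p = 0.00457). Between the rescue and the null line the difference was -0.10, with a 95% interval of -0.31 to 0.11. The rescue against wild-type call held in all 17 alternatives. The null against wild-type call missed the threshold without null replicate 1 (limma adjusted p = 0.0521), wild type replicate 1 (0.0551) or wild type replicate 2 (0.0610).

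Junb encodes a JUN protein that can oppose c-JUN and restrains proliferation and inflammation in mouse epidermis. It gave 284 and 291 on the rescue arrays, 375 and 377 on the null ones, and 329 and 344 on those of wild type. The 3 lines did not overlap, with null highest and rescue lowest. The rescue line had 0.764 of the null intensity (log2 difference -0.37 ± 0.07, limma adjusted p = 0.0213). The call was lost without the variance trend (limma adjusted p = 0.0503), with only the 4 rescue and null arrays in the fit (0.0534) and without any single array. Without a null or rescue array, the log2 difference ranged from -0.387 to -0.353. The other fits named here leave it unchanged. Neither comparison with wild type was called, with log2 differences of 0.15 for null minus wild type (limma adjusted p = 0.228) and -0.22 for rescue minus wild type (0.101).

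Jund encodes the JUN protein that is made most steadily across tissues and growth states. Its values were 1015 and 874 on the rescue arrays, 923 and 979 on the null ones, and 811 and 817 on those of wild type. All rescue and null arrays lay above the wild-type arrays. The log2 difference from wild type was 0.21 for rescue (limma adjusted p = 0.187) and 0.22 for null (limma adjusted p = 0.174), and neither passed. Rescue and null differed by -0.01, with a 95% interval of -0.23 to 0.20.

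Atf3 encodes a stress-induced bZIP protein that pairs with JUN proteins and mostly represses. It gave 1814 and 1515 on the rescue arrays, 990 and 1170 on the null ones, and 1137 and 1211 on those of wild type. Both rescue arrays were above the other 4, and null and wild type overlapped. The rescue line was 1.54 times as bright as the null line (log2 difference 0.62 ± 0.12, limma adjusted p = 0.0220) and 1.42 times as bright as wild type (0.49 ± 0.12, limma adjusted p = 0.0434). The first call ended without the variance trend (limma adjusted p = 0.0533), with only the 4 arrays compared (0.0518) and without either wild-type array, null replicate 1 or rescue replicate 1 (0.0515 to 0.100). The second call ended with median centring (limma adjusted p = 0.0557), without the trend (0.0865), with only the 4 arrays compared (0.0505) and in 5 of the fits that left out an array (0.0501 to 0.187). The null minus wild-type difference was -0.12, with a 95% interval of -0.41 to 0.17.

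Egr1 encodes a zinc finger factor induced through SRF, and is often read as a marker of acute ERK activity. It gave 103 and 91.0 on the rescue arrays, 117 and 111 on the null ones, and 93.6 and 102 on those of wild type. The null arrays were the highest, and rescue and wild type overlapped. Rescue minus null was -0.20 (limma adjusted p = 0.274) on the log2 scale. The other differences were 0.19 for null minus wild type (0.323) and -0.01 for rescue minus wild type. None was called, and no detection p-values were used here.

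Ier3, also called IEX-1, encodes a short-lived immediate early protein that affects survival and ERK signalling. It gave 3322 and 3347 on the rescue arrays, 2650 and 3066 on the null ones, and 3367 and 3515 on those of wild type. Both null arrays were the lowest, but they differed more from each other than the rescue did from wild type. Rescue minus null was 0.23 (limma adjusted p = 0.140) on the log2 scale. The other differences were -0.27 for null minus wild type (0.0907) and -0.04 for rescue minus wild type. The null against wild-type difference passed only where fewer clusters were tested, with clusters above the median (limma adjusted p = 0.0440) or with 1 symbol (0.0441).

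**Figure D3:**
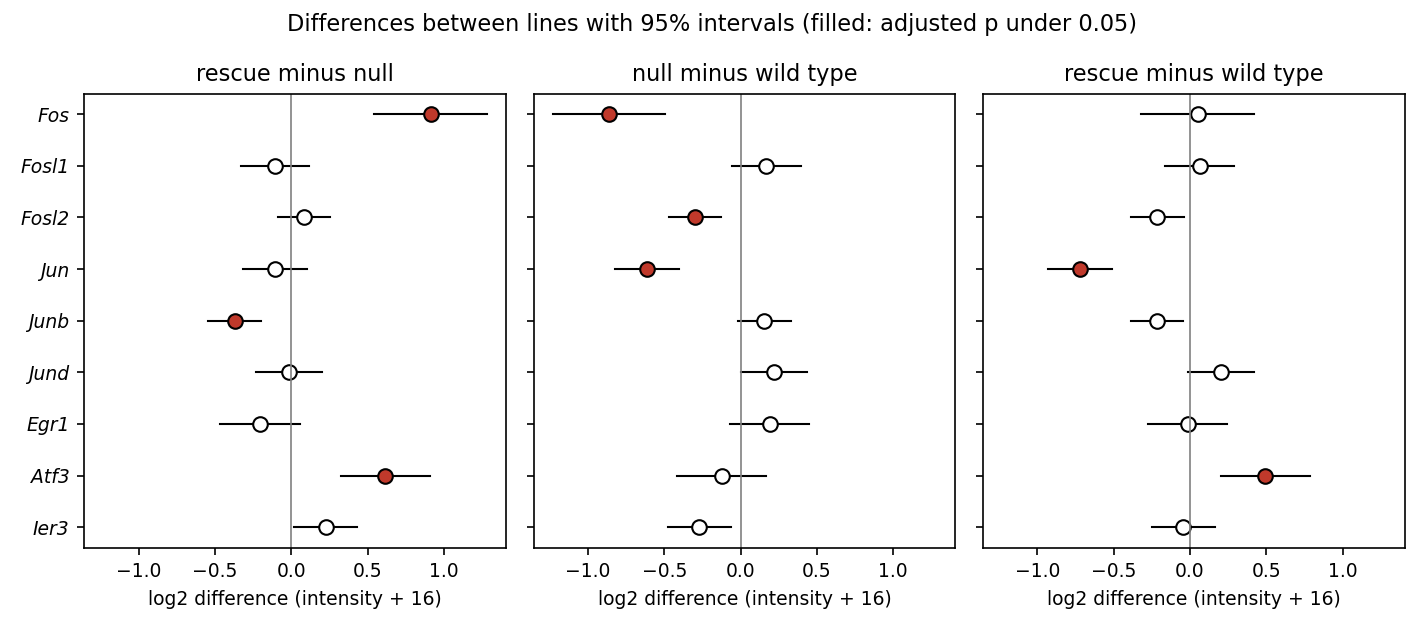
Log2 differences (horizontal axes, log2(intensity + 16)) of the 9 measured members in each comparison, with 95% intervals from limma. Filled points have an adjusted p under 0.05. Fos is to the right of 0 in rescue minus null and to the left in null minus wild type, and Jun is to the left of 0 in both comparisons with wild type.

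By family, the FOS genes had 1 rise and 0 falls among 3 measured genes in rescue minus null, 0 and 2 in null minus wild type, and 0 and 0 in rescue minus wild type. The JUN genes had 0 rises and 1 fall in each of the 3 comparisons, which was Junb in rescue minus null and Jun in the other 2. At an unadjusted p under 0.05 in limma, 1 FOS gene was lower in rescue than in wild type (Fosl2), 1 JUN gene was lower in rescue than in wild type beside Jun (Junb), and 1 JUN gene was higher in null than in wild type (Jund). The intensity of different genes cannot be compared on these arrays, so which dimers prevailed in a line is not shown by these values.

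The 3 members with the widest range of line means were Fos (0.91 on the log2 scale), Jun (0.72) and Atf3 (0.62). Among 855 clusters of other genes with a range of at least 1, those whose values correlated most with Fos over the 6 arrays were Mgst1, a microsomal glutathione transferase gene (Pearson's r = 0.99), Rin3 (0.98) and the β-defensin gene Defb1 (0.98). Mgst1 averaged 1526 ± 56.3 in the rescue, 689 ± 120 in the null and 1440 ± 50.4 in the wild-type line (SD, n = 2 each). Jun was followed most closely by Fkbp14 (1.00), Tmem218 (0.99) and Mdp1 (0.99). Mdp1 averaged 8.97 ± 6.02 in rescue, 20.8 ± 1.36 in null and 656 ± 44.8 in wild type. For Atf3 the closest were Agbl3 (0.99), Tm2d2 (0.98) and Prxl2a (0.98), and Tm2d2 averaged 2141 ± 362 in rescue, 865 ± 114 in null and 1034 ± 46.8 in wild type. The correlations rest on 6 arrays of 3 lines, and 124, 187 and 96 of the 855 clusters had an r above 0.9 with Fos, Jun and Atf3, so such likeness was common.

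Textbook AP-1 target genes were then examined, among them proteases, cytokines and differentiation genes. The list was chosen with earlier results of these data known, so its shares describe the listed genes and are not a test. Of 36 measured, 13 rose and 1 fell in the rescue against the null line, or 36.1% and 2.78%, beside 9.75% and 5.62% of all clusters. In the null against the wild-type line 2 rose and 19 fell, or 5.56% and 52.8%, beside 8.49% and 6.84%. In the rescue against the wild-type line 4 rose and 6 fell, or 11.1% and 16.7%, beside 10.4% and 5.05%. Of clusters with 1 symbol, tested alone, the shares were 15.9% and 9.52%, 14.2% and 12.1%, and 16.6% and 9.16%. Of clusters above the median mean, tested alone, they were 22.6% and 14.2%, 20.8% and 15.2%, and 23.7% and 10.7%. The median log2 difference of the 36 genes was 0.30, -0.34 and -0.05 in that order, against 0.02, -0.01 and 0.03 over all clusters. The first 2 medians kept their sign after quantile normalization (0.26 and -0.33) and median centring (0.18 and -0.26). When 1 array was left out, the rises in rescue minus null numbered 9 to 13, and 1 fall was lost in each such fit. The falls in null minus wild type numbered 9 without wild type replicate 1, 7 without wild type replicate 2, 8 without null replicate 1, 10 without null replicate 2 and 17 without either rescue array. The rises there numbered 0 without any of the null and wild-type arrays, and in rescue minus wild type 0 to 5 rose and 4 to 6 fell, with 0 rises without either wild-type array.

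Csf2, which encodes the cytokine GM-CSF, gave 598 and 481 on the rescue arrays, 165 and 158 on the null ones, and 1319 and 1345 on those of wild type. The 3 lines were well apart, with rescue between null and wild type (log2 difference 1.64 ± 0.11 for rescue minus null, -2.93 ± 0.11 for null minus wild type and -1.29 ± 0.11 for rescue minus wild type). The stromelysin gene Mmp3 gave 157 and 156 on the rescue arrays, 20.3 and 20.5 on the null ones, and 152 and 244 on those of wild type. Rescue and wild type overlapped, and null stood far below (2.24 ± 0.20 for rescue minus null and -2.52 ± 0.20 for null minus wild type). The collagenase gene Mmp1b followed the same order of lines, with 82.3 ± 7.66 in rescue, 18.7 ± 5.86 in null and 111 ± 12.6 in wild type (SD, n = 2 each). Itga2, which encodes the α2 subunit of a collagen receptor, averaged 350 ± 28.7 in rescue, 93.3 ± 10.8 in null and 797 ± 88.1 in wild type. Bcl2l11, the gene of the pro-apoptotic protein BIM, averaged 262 ± 8.17 in rescue, 116 ± 2.74 in null and 240 ± 9.10 in wild type.

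Other targets were low in both lines derived from the α3-null mouse, as Jun was. Vim, which encodes vimentin, gave 180 and 146 on the rescue arrays, 137 and 148 on the null ones, and 1200 and 939.5 on those of wild type. Rescue and null overlapped (log2 difference -2.59 ± 0.15 for rescue minus wild type, limma adjusted p = 2.40e-04). Sprr1b, a cornified envelope precursor gene, averaged 1285 ± 66.6 in rescue, 1397 ± 66.0 in null and 2484 ± 206 in wild type. Tgm1, the gene of the transglutaminase that crosslinks the envelope, averaged 116 ± 8.75 in rescue, 131 ± 5.16 in null and 197 ± 10.7 in wild type, with a log2 difference of -0.69 ± 0.10 between rescue and wild type (limma adjusted p = 0.00838).

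Of 38 other immediate early genes measured, 7 rose and 4 fell in rescue minus null (18.4% and 10.5%), 4 rose and 10 fell in null minus wild type (10.5% and 26.3%), and 1 rose and 5 fell in rescue minus wild type (2.63% and 13.2%). Over all clusters the shares higher and lower were 9.75% and 5.62%, 8.49% and 6.84%, and 10.4% and 5.05% in the same order. Of clusters with 1 symbol, tested alone, they were 15.9% and 9.52%, 14.2% and 12.1%, and 16.6% and 9.16%. Of clusters above the median mean, tested alone, they were 22.6% and 14.2%, 20.8% and 15.2%, and 23.7% and 10.7%. The median log2 difference of the list was 0.08, -0.14 and -0.05, against 0.02, -0.01 and 0.03 over all clusters. In rescue minus null its sign turned after quantile normalization (-0.02, with 5 up and 5 down) and after median centring (-0.04, with 4 up and 5 down). With any 1 array left out, 2 to 4 rose and 2 to 4 fell there, 1 to 4 rose in null minus wild type, and 0 to 1 rose and 3 to 5 fell in rescue minus wild type. The falls in null minus wild type numbered 5 without wild type replicate 1, 3 without wild type replicate 2, 4 without null replicate 1 and 5 without null replicate 2. Cyr61 (also named Ccn1), a matrix-associated signalling protein gene and a target of SRF and YAP, gave 1321 and 1033 on the rescue arrays, 567 and 472 on the null ones, and 1801 and 1626 on those of wild type. Its lines did not overlap, and it rose by 1.15 ± 0.14 in rescue minus null and had a difference of -1.70 ± 0.14 in null minus wild type. Btg2, an antiproliferative gene that p53 also induces, averaged 878 ± 63.8 in rescue, 464 ± 6.70 in null and 949 ± 32.8 in wild type. Klf10, a TGF-β inducible gene, averaged 369 ± 11.7 in rescue, 277 ± 36.7 in null and 519 ± 67.8 in wild type.

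Not every immediate early gene followed the order of lines of Fos. Ptgs2, which encodes the cyclooxygenase COX-2, gave 1622 and 1387 on the rescue arrays, 3692 and 3882 on the null ones, and 3193 and 3446 on those of wild type. The rescue arrays stood far below the other 4 (-1.33 ± 0.09 for rescue minus null, limma adjusted p = 9.38e-04). F3, the tissue factor gene, averaged 367 ± 46.1 in rescue, 712 ± 39.8 in null and 451 ± 28.5 in wild type. Klf4, a factor of epidermal barrier formation, was highest in null, at 619 ± 25.6 in rescue, 826 ± 5.38 in null and 517 ± 18.4 in wild type. Gadd45b averaged 1753 ± 78.5 in rescue, 2344 ± 44.9 in null and 2946 ± 20.7 in wild type. Ier5l averaged 176 ± 15.9 in rescue, 189 ± 8.42 in null and 362 ± 23.7 in wild type, an order like that of Jun. Zfp36l1, an mRNA decay factor gene, averaged 312 ± 21.8 in rescue, 315 ± 14.4 in null and 497 ± 59.2 in wild type, while Id1 averaged 700 ± 84.5 in rescue, 528 ± 45.0 in null and 378 ± 24.9 in wild type.

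Of 29 other bZIP genes measured, 7 rose and 1 fell in rescue minus null (24.1% and 3.45%), 5 rose and 4 fell in null minus wild type (17.2% and 13.8%), and 7 rose and 1 fell in rescue minus wild type (24.1% and 3.45%). The shares of all clusters were 9.75% and 5.62%, 8.49% and 6.84%, and 10.4% and 5.05% in that order. Of clusters with 1 symbol, tested alone, they were 15.9% and 9.52%, 14.2% and 12.1%, and 16.6% and 9.16%. Of clusters above the median mean, tested alone, the shares were 22.6% and 14.2%, 20.8% and 15.2%, and 23.7% and 10.7%. That filter kept 26 of the bZIP genes, with 7 up and 1 down, 9 up and 4 down, and 8 up and 1 down. The median log2 difference of the list in rescue minus null was 0.05. It turned to -0.06 after quantile normalization (6 up and 3 down) and to -0.06 after centring (4 up and 3 down). With an array left out, the rises in that comparison numbered 1 without null replicate 1, 3 without null replicate 2, 2 without rescue replicate 1, 3 without rescue replicate 2 and 5 without either wild-type array. In such fits 1 to 5 rose and 0 to 3 fell in null minus wild type, and 3 to 5 rose and 1 fell in rescue minus wild type. Jdp2, which encodes a repressor that pairs with JUN, gave 1108 and 1146 on the rescue arrays, 728 and 795 on the null ones, and 674 and 667 on those of wild type. It was highest in the rescue line, as Atf3 was (0.56 ± 0.07 for rescue minus null, limma adjusted p = 0.00644). Atf2, a partner of c-JUN at CRE-type sites, averaged 1362 ± 1.65 in rescue, 1570 ± 6.72 in null and 1113 ± 32.3 in wild type. Crem, a cAMP-responsive modulator gene, averaged 202 ± 22.4 in rescue, 106 ± 19.2 in null and 189 ± 12.2 in wild type.

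Among the remaining bZIP genes named by the rule, the stress factor gene Ddit3 (CHOP) averaged 405 ± 9.93 in rescue, 550 ± 107 in null and 302 ± 39.5 in wild type. Creb5 averaged 182 ± 1.93 in rescue, 217 ± 2.77 in null and 104 ± 3.56 in wild type. Bach1, a repressor of antioxidant genes, averaged 764 ± 48.8 in rescue, 816 ± 24.3 in null and 1222 ± 66.2 in wild type. Its order of lines resembled that of Jun. Cebpg and Mafg, which encode small dimer partners without a classical activation domain, rose in the rescue against the wild-type line by 0.65 ± 0.07 and 0.53 ± 0.09. Cebpb and Nfe2l3 rose in the rescue against the null line by 0.47 ± 0.09 and 0.71 ± 0.13.

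Of 26 measured genes for upstream kinases and SRF cofactors, 6 rose and 4 fell in rescue minus null (23.1% and 15.4%), 4 rose and 3 fell in null minus wild type (15.4% and 11.5%), and 4 rose and 3 fell in rescue minus wild type (15.4% and 11.5%). Of all clusters, 9.75% and 5.62%, 8.49% and 6.84%, and 10.4% and 5.05% were called higher and lower in those comparisons. Of clusters with 1 symbol, tested alone, it was 15.9% and 9.52%, 14.2% and 12.1%, and 16.6% and 9.16%. Of clusters above the median mean, tested alone, it was 22.6% and 14.2%, 20.8% and 15.2%, and 23.7% and 10.7%. The median log2 difference of the list in rescue minus null was 0.05. It turned to -0.02 after quantile normalization and -0.07 after centring, each with 5 up and 8 down. With an array left out, the rises numbered 3 to 6, 0 to 3 and 1 to 3 in the same order, with 0 in null minus wild type without any of the null and wild-type arrays. The falls numbered 0 to 4, 2 to 3 and 2 to 3, with 0 in rescue minus null without null replicate 1. Map2k6, which encodes the p38 activator MKK6, gave 81.8 and 84.5 on the rescue arrays, 28.2 and 28.4 on the null ones, and 213 and 224 on those of wild type. Mapk13, the gene of p38δ, gave 691 and 680 on the rescue arrays, 229 and 253 on the null ones, and 517 and 542 on those of wild type. Both p38 pathway genes were lowest in the null line, with log2 differences for null minus wild type of -2.40 ± 0.10 and -1.09 ± 0.08. Mapk11, the gene of p38β, averaged 190 ± 26.2 in rescue, 122 ± 4.05 in null and 205 ± 17.0 in wild type. Map3k7, the gene of the kinase TAK1, averaged 1597 ± 71.5 in rescue, 1108 ± 2.36 in null and 1300 ± 62.9 in wild type.

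Srf, whose protein binds the CArG box, rose in the null against the wild-type line (0.33 ± 0.07, limma adjusted p = 0.0331) and was not called in rescue minus null (-0.27, limma adjusted p = 0.0646). Elk1 and Egfr were called in no comparison, with differences for rescue minus null of -0.27 (95% interval -0.48 to -0.07) and 0.06 (-0.10 to 0.23). Elk3 averaged 1535 ± 59.9 in rescue, 1740 ± 58.0 in null and 1329 ± 27.0 in wild type. Mapk8, which encodes JNK1, rose in the rescue against the wild-type line (0.46 ± 0.09, limma adjusted p = 0.0260). Mapk7, the gene of ERK5, averaged 211 ± 21.6 in rescue, 345 ± 10.8 in null and 399 ± 6.53 in wild type. Map2k2 fell in rescue minus null by 0.39 on the log2 scale, Rps6ka3 rose in null minus wild type by 0.62 ± 0.11 and Rps6ka5 rose in rescue minus wild type by 1.04 ± 0.11.

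**Figure D4:**
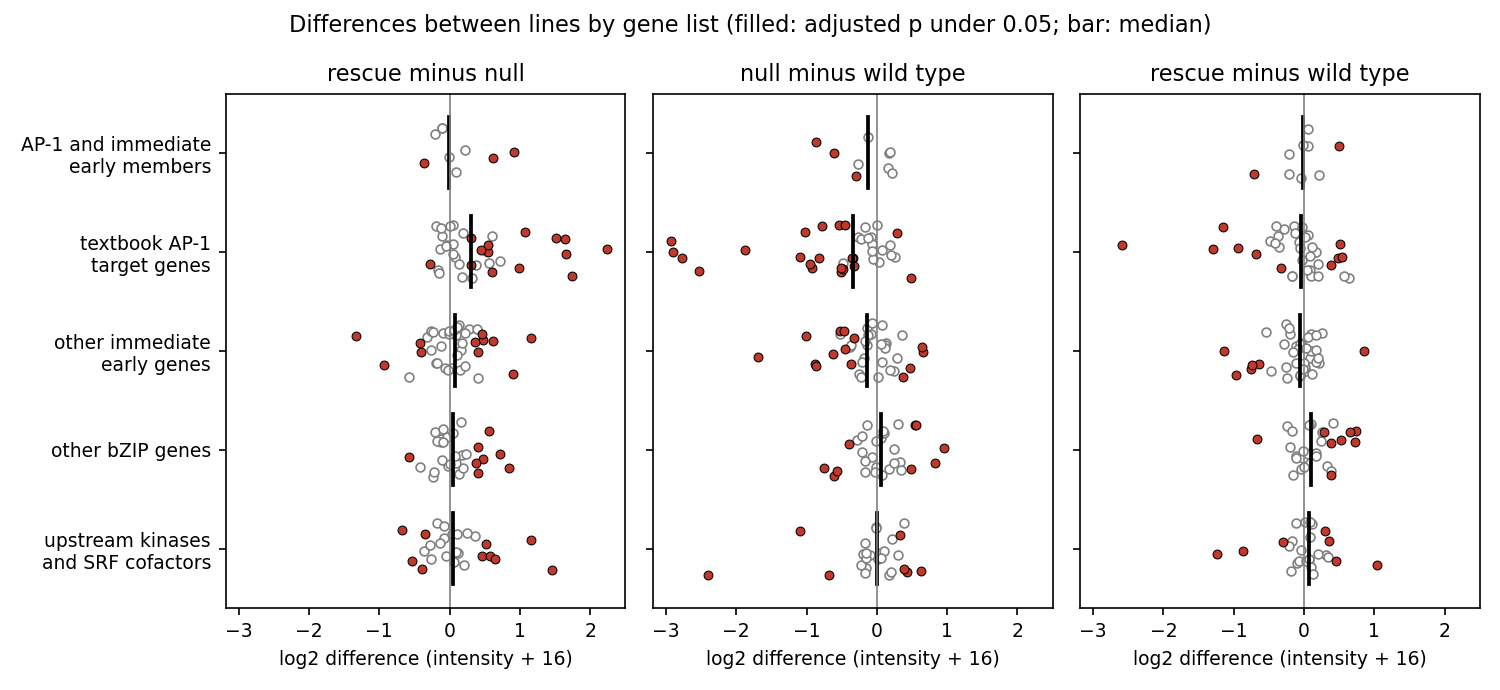
Log2 differences (horizontal axes, log2(intensity + 16)) of the members and of 4 related gene lists in each comparison. Points are genes (vertical scatter has no meaning), filled where the limma adjusted p is under 0.05, and black bars are medians. The AP-1 target genes have a median of 0.30 in rescue minus null and -0.34 in null minus wild type. The members and lists were chosen with earlier results of these data known.

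Of the 8 keratinocyte markers, 4 fell and 0 rose in rescue minus null and 4 rose and 0 fell in null minus wild type, at an unadjusted p under 0.05 as well as in the adjusted limma test. These were Trp63, Cdh3, Dsg3 and Col17a1. With any null or wild-type array left out, 1 of the 4 rises was still called. Dsg3, a desmosomal cadherin gene, averaged 1823 ± 60.7 in rescue, 2720 ± 73.9 in null and 1778 ± 64.9 in wild type, so it was highest in the line in which Fos was lowest. Col17a1 averaged 2328 ± 220 in rescue, 3705 ± 34.7 in null and 2819 ± 58.0 in wild type. The part of cell state in the differences of the AP-1 genes was not tested. In RNA from whole cultures, fewer cells with a transcript and less of it per cell cannot be told apart.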

How the data were processed

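Gene expression was measured on 6 Affymetrix Mouse Exon 1.0 ST arrays, 2 per line, grouped by the sample titles. The deposited values are PLIER intensity on a linear scale, summarised over core exons, per the labels. The submitters' processing notes name Expression Console, and the design text another Affymetrix program for exon arrays. Background correction, normalization between arrays, versions and genome build were not given in the sources used here.

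Values were analysed as log2(intensity + 16), computed from the deposited intensity without further normalization or filter, which understates changes of dim genes. All 6 arrays and 23332 clusters entered 1 limma fit (version 3.58.1, R 4.3.3) with a coefficient for each line and eBayes with a trend on intensity; residual degrees of freedom were 3. Two-sided p-values were adjusted by Benjamini-Hochberg across every cluster, and a call needed an adjusted p under 0.05. The procedure was tested on simulated data, and no result of that test is given here.

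Symbols came from the platform annotation (14996 clusters with 1 symbol, 1019 with several, 7317 with none), and clusters with several symbols named no gene. Older list symbols were matched through the RefSeq table of GRCm38.p6, which also gave the promoters. The members and lists were chosen with earlier results of these data known. All members were named, with Itga3, Srf, Elk1, Egfr and Mapk8, up to 5 called genes of smallest adjusted p per list and comparison, and the 3 clusters most like each of the 3 most variable members. Alternatives were other pseudocounts (4 and 64), scalings, filters, variance models, arrays in the fit, a replicate block and a 2-fold threshold. The 2 arrays per line limit the precision of every value.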

Additional observations from a re-analysis of the deposited data

How the results depend on the processing

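Across 27 member differences and up to 17 alternatives each, 404 of 456 values kept their direction and side of the threshold, 38 kept the direction but lost the call, 4 gained it and 10 changed sign. All 38 losses fell on called differences, since the others had no call to lose. Of 17 alternatives, Atf3 lost its call in 6 in rescue minus null and 9 in rescue minus wild type. Junb lost it in 8 and Fosl2 in 7. Fos lost it in 3 in null minus wild type and 2 in rescue minus null. Jun lost it in 3 in null minus wild type and 0 in rescue minus wild type. The rescue minus null count of 3 called members was 1 without the variance trend and 1 with only the 4 arrays compared. The null minus wild type count of 3 was 2 with median centring, without the variance trend and with the replicate block. It was 4 with only clusters above the median mean or with 1 symbol. The rescue minus wild type count of 2 was 4 after quantile normalization, and 1 in each of 4 fits, those with median centring, with the replicate block, with only the 4 arrays compared and without the variance trend. A 2-fold threshold left 0 members in each comparison. With 1 array left out, the counts ranged from 0 to 3 in null minus wild type, 0 to 2 in rescue minus null and 1 to 2 in rescue minus wild type; the cause was not tested beyond the loss of an array, and the lone array was assumed to vary like the other lines.

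No called difference changed sign, though the filters, variance models and replicate block leave every estimate as it was. In rescue minus null, Fosl2 turned to -0.035 with median centring, and Jund ranged from -0.118 to 0.0932 over the fits that left out an array. In rescue minus wild type, Fos was -0.032 and Fosl1 -0.045 after quantile normalization, and over the fits that left out an array Fos ranged from -0.0658 to 0.168, Fosl1 from -0.0415 to 0.167 and Egr1 from -0.0891 to 0.061. Quantile normalization added calls of Fosl2 (-0.32, limma adjusted p = 0.0418) and Junb (-0.33, 0.0319) in rescue minus wild type. Same-numbered arrays did not deviate together (r of 0.03, 0.05 and -0.02 between lines), so the numbers were not taken as pairs. The replicate block ended the calls of Fosl2 in null minus wild type (limma adjusted p = 0.0682) and Atf3 in rescue minus wild type (0.0706) and changed no other member's call. Egr1 had no value under the filter at the median cluster mean.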
